A study of Arabidopsis thaliana with 16 samples.

Results

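The response of Arabidopsis seedlings to zeocin was set beside their response to UV-C, gene by gene, to see where the same DNA damage programme answered both agents and where the answers parted. Members were TAIR10 nuclear genes that their longest-overlap assembled locus held alone in both count tables of the study, 17344 of 37899 annotated genes. Of these, 17174 passed a filter on low counts and were tested, and 170 did not. All plants were Col-0 wild-type seedlings grown in vitro to an age of 15 days. The groups were 5 libraries of seedlings exposed to zeocin at 200 microg/ml for 3 h, 5 of their mock-treated seedlings, 3 of seedlings exposed to UV-C at 8 kJ/m2, and 3 of the mock-treated seedlings of that experiment. The time between UV-C exposure and harvest is not in the labels, and neither is the hour of day. The agents therefore differed in dose and possibly in time and hour of sampling, and these cannot be told apart from the agent. The labels leave unsaid if each replicate was a culture of its own. The p-values therefore speak for the spread among these libraries, part or all of which may be technical.

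Zeocin, of the bleomycin family, cuts DNA and leaves double-strand breaks, whereas UV-C joins neighbouring pyrimidines within a strand. In plants, breaks and stalled forks are sensed by the kinases ATM and ATR, which activate SOG1, a NAC transcription factor that takes the place p53 has in animals. SOG1 switches on genes of homologous recombination, nucleotide supply and cell cycle arrest, while MYB3R repressors hold down genes of G2 phase and mitosis. Pyrimidine dimers are removed by photolyases in light and by nucleotide excision repair, and UV-C also reaches proteins, membranes and RNA and is known to evoke stress and defence signalling.

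Each gene has 3 values from a single edgeR fit over all 16 libraries. The zeocin response and the UV-C response are log2 changes of treated over mock seedlings. The difference is the zeocin response minus the UV-C response, so a positive difference means a higher zeocin response. The threshold for a call was a p of 0.05 from edgeR's quasi-likelihood test after Benjamini-Hochberg adjustment, and "rose" and "fell" are used only of called responses. Levels are CPM, counts relative to the library total, scaled by edgeR's TMM factors, and since the 2 tables were counted on different assemblies they are compared only within an experiment. Total counts ranged from 31185080 to 44536500 after zeocin, from 31329853 to 41488445 in its mocks, from 27973871 to 30014943 after UV-C and from 32161555 to 37507136 in its mocks. The genes tested and those filtered took 57.2% to 59.9% of these totals after zeocin, 58.7% to 63.7% in its mocks, 45.3% to 46.6% after UV-C and 45.5% to 48.2% in its mocks. Shoot and root genes were both present, as the label seedling implies: RBCS1A, the small subunit of Rubisco, averaged 4744 CPM after zeocin and 5290 CPM in its mocks, and the Casparian strip gene CASP1 averaged 5.73 CPM after zeocin and 13.1 CPM in its mocks.

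The promoters of several genes on which the results turn are shown first, because known binding sequences for factors of these pathways lie in them. The windows searched were the 250 bases before each gene's start in RefSeq's TAIR10.1 genome, from which the sequences come, on both strands. In the first set, the capitals mark the site bound by SOG1, CTT and AAG with 7 free bases between them, with 40 bases on each side where the window allows. AT5G23910 (chr5:8068029-8068121, plus strand) encodes a microtubule motor protein and responded in opposite directions. COM1 (chr3:19325930-19326022, plus strand) acts in homologous recombination and rose more after zeocin. SMR7 (chr3:10231568-10231650, minus strand) encodes an inhibitor of cyclin-dependent kinases, and AT4G09215 (chr4:16891899-16891991, minus strand) is annotated as an uncharacterised RNA with a like rise after both agents.
AT5G23910: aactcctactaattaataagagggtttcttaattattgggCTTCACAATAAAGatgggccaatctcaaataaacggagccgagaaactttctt
COM1: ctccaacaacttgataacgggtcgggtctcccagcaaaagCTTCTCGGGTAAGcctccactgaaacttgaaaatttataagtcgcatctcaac
SMR7: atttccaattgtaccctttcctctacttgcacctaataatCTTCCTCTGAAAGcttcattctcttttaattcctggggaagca
AT4G09215: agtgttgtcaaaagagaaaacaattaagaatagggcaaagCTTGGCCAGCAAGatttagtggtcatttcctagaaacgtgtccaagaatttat

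The second set holds genes that rose after UV-C and had a far lower zeocin response. The capitals mark the W-box TTGACC, the element of WRKY factors. AOX1D (chr1:11668707-11668792, minus strand) encodes an alternative oxidase of mitochondria, and AT2G04050 (chr2:1339520-1339605, minus strand) a MATE efflux transporter. The last set holds clock genes that fell after UV-C, and its capitals mark the evening element AAAATATCT or its reverse complement, to which CCA1, LHY and RVE8 bind. TOC1 (chr5:24674772-24674860, plus strand) is a pseudo-response regulator, LUX (chr3:17182949-17183037, plus strand) belongs to the evening complex, and GRP7 (chr2:9266558-9266628, minus strand) encodes an RNA-binding protein of the clock's output. GRP7 had 3 matches in its window, of which the one nearest to the gene start is in capitals.
AOX1D: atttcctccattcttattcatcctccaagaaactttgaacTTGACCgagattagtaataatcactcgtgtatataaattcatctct
AT2G04050: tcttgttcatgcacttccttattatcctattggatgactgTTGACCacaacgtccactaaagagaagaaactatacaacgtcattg
TOC1: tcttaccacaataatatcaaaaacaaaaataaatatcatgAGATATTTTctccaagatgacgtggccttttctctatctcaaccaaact
LUX: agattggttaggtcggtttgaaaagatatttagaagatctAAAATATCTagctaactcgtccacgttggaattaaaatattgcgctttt
GRP7: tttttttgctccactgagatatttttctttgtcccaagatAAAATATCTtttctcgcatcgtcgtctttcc

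Across all genes, more were called after UV-C than after zeocin, although its experiment had fewer libraries. After zeocin 2993 genes rose (17.4%) and 2419 fell (14.1%), and after UV-C 4883 rose (28.4%) and 5111 fell (29.8%). The difference was called for 47.2% of the genes, with 4091 higher (23.8%) and 4018 lower (23.4%). The median size of a response, whatever its sign, was 0.23 on the log2 scale for zeocin and 0.55 for UV-C. Of the genes called after zeocin 68.0% were also called after UV-C, and of those called after UV-C 36.8% were also called after zeocin. Across the 17174 genes the 2 responses had a Pearson r of 0.45 and a Spearman rho of 0.38, given as a description, since genes of the same libraries are not independent.

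**Figure D1:**
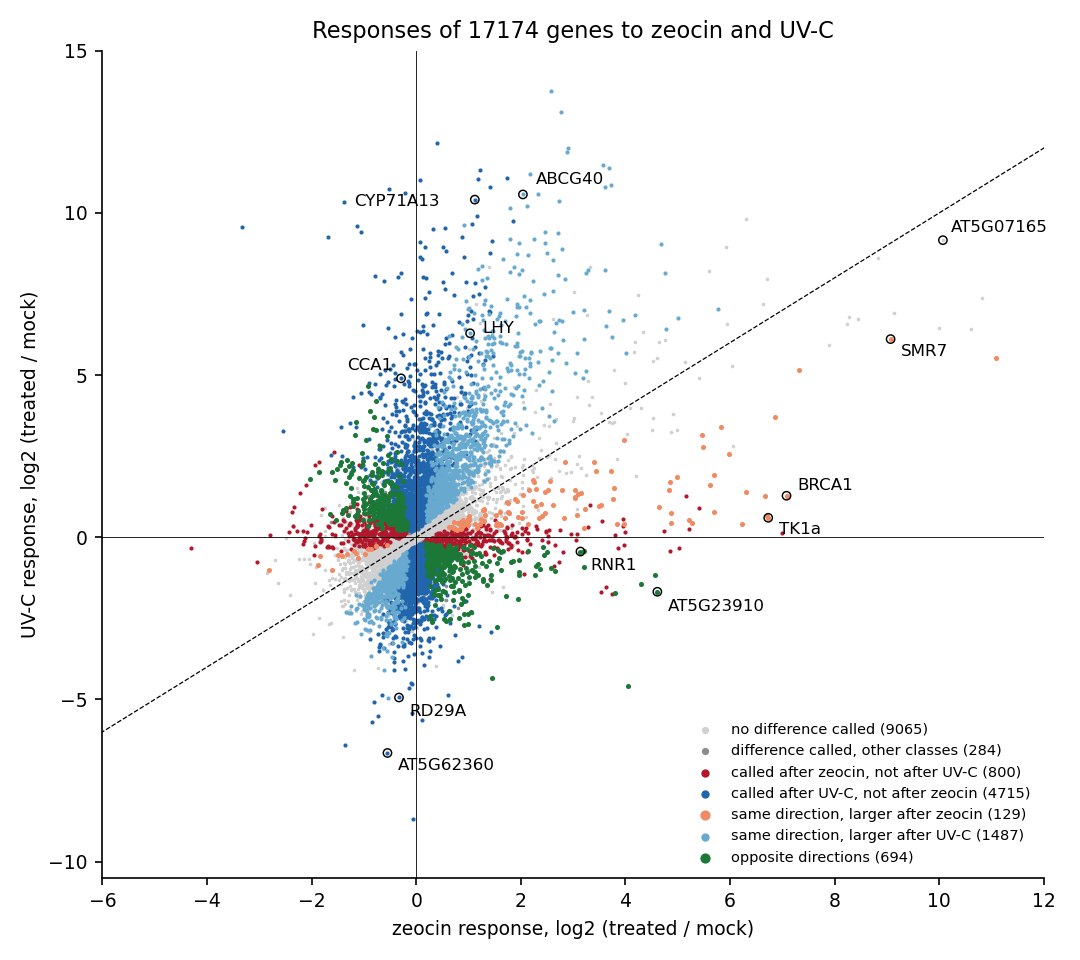
Each point is a gene, with its zeocin response on the horizontal axis and its UV-C response on the vertical axis, both as log2 of treated over mock, and the dashed line marks equal responses. Colours give the classes with their numbers of genes. The 113 genes that rose in both and more after zeocin lie low and right, with BRCA1, TK1a and SMR7 among those labelled, while most of the coloured points lie along the UV-C axis.

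The called genes fell into classes of very unequal size. The largest with a called difference were UV-C responses with no zeocin call, 2131 rises with a median of 1.15 and 2584 falls with a median of -0.85 on the log2 scale. Zeocin responses with no UV-C call were fewer, 424 rises with a median of 0.67 and 376 falls with a median of -0.68. Among genes that rose after both agents, in 113 the rise was larger after zeocin (medians 2.24 after zeocin and 0.74 after UV-C), in 1002 it was larger after UV-C (medians 0.74 after zeocin and 2.29 after UV-C), and in 693 no difference was called (medians 0.61 after zeocin and 0.76 after UV-C). Among genes that fell after both, 16 fell more after zeocin, 485 more after UV-C and 679 with no called difference. Opposite responses were called in 694 genes, 351 of which rose after zeocin and fell after UV-C and 343 the reverse.

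Of the gene lists, the SOG1-dependent damage genes had the largest median difference. The list holds genes known as SOG1 targets or as part of that response, chosen with earlier results of these data known, and 20 of its 23 members were tested; SMR5, PARP2 and NAC044 lacked a locus of their own in at least 1 table. After zeocin 19 of the 20 rose and 1 fell, against 17.4% and 14.1% of all genes, with a median of 5.31 on the log2 scale. After UV-C 16 rose, against 28.4%, with a median of 0.96. The difference was higher in 18 of 20, against 23.8% of all genes, with a median of 3.65. Recombination, nucleotide supply and arrest genes were all among them.

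BRCA1 (AT4G21070, chr4:11247991-11252757), a ubiquitin ligase subunit of homologous recombination, had 463, 533, 458, 494 and 452 CPM after zeocin, against 3.66, 3.62, 3.25, 3.8 and 3.40 CPM in its mocks. Its levels after UV-C were 17.0, 17.2 and 15.7 CPM, against 5.89, 8.05 and 6.59 CPM in those mocks. Neither pair of groups overlapped, so both agents raised it, by 7.08 ± 0.10 (SE) after zeocin and 1.28 ± 0.11 after UV-C on the log2 scale. The difference was 5.80 ± 0.15 (edgeR adjusted p = 3.53e-14). COM1, which starts end resection, rose by 5.68 after zeocin and 0.79 after UV-C, and XRI1, needed after X-rays and in meiosis, by 6.31 after zeocin and 1.39 after UV-C. GMI1, an SMC-like protein of recombination, rose by 5.41 after zeocin, while its UV-C value of 0.90 was not called.

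TK1a (AT3G07800, chr3:2489387-2491180), a thymidine kinase that supplies a deoxynucleotide precursor, also rose more after zeocin. It had 566, 506, 460, 591 and 452 CPM after zeocin, against 4.20, 5.52, 5.97, 3.86 and 4.68 CPM in its mocks. In the UV-C experiment the treated seedlings had 19.6, 18.3 and 18.6 CPM, against 12.2, 13.5 and 11.5 CPM in those mocks. The groups were apart in both experiments, and the rises of 6.73 ± 0.14 after zeocin and 0.60 ± 0.15 after UV-C on the log2 scale gave a difference of 6.13 ± 0.20 (edgeR adjusted p = 2.97e-13). TSO2, a small subunit of ribonucleotide reductase, rose by 6.23 after zeocin; its UV-C response was 0.41 and lost its call without UV-C mock 3 or UV-C library 1 and under table totals. RNR2A, another small subunit, had 0.00 after zeocin and rose by 0.83 after UV-C, a difference of -0.82. RNR1 (AT2G21790, chr2:9293261-9297861), the large subunit of the same enzyme, parted in sign. It had 460, 459, 484, 470 and 467 CPM after zeocin, against 53.7, 46.2, 57.0, 58.2 and 50.7 CPM in its mocks, and 52.1, 53.4 and 45.6 CPM after UV-C, against 64.3, 79.1 and 61.9 CPM in those mocks. Its zeocin libraries were far above and its UV-C libraries somewhat below their mocks, with responses of 3.14 ± 0.09 to zeocin and -0.44 ± 0.11 to UV-C and a difference of 3.58 ± 0.14 (edgeR adjusted p = 4.18e-12).

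SMR7 (AT3G27630, chr3:10230892-10231567), the inhibitor of cyclin-dependent kinases, rose far above its mocks after both agents. It had 147, 182, 184, 150 and 127 CPM after zeocin, against 0.190, 0.581, 0.206, 0.291 and 0.228 CPM in its mocks. After UV-C it had 11.6, 9.63 and 10.7 CPM, against 0.179, 0.120 and 0.151 CPM in those mocks. Every treated library was far above every mock in both experiments, with rises of 9.07 ± 0.21 after zeocin and 6.11 ± 0.32 after UV-C and a difference of 2.97 ± 0.62 (edgeR adjusted p = 0.000868). SMR4, of the same inhibitor family, rose by 4.98 after zeocin and 1.85 after UV-C, and NAC103, a NAC factor, by 5.99 after zeocin and 2.58 after UV-C. NAC085, another NAC factor of the damage response, had no called difference by edgeR, though DESeq2 (3.14) and limma-voom (4.67) called it: it rose by 7.90 after zeocin, and after UV-C it had 12 counts over 3 libraries against 0 in the mocks, which makes the rise at least 5.27-fold when 3 counts over the group stand for 0. That UV-C rise lost its call without UV-C library 2. CYCB1;1, the B-type cyclin kept high in arrested cells, rose by 5.22 after zeocin, with 0.26 after UV-C, which was not called; without UV-C library 3 that UV-C value was called, while the difference of 4.96 ± 0.18 was called with any 1 library left out. BARD1, the partner of BRCA1, went against the list with -1.12 after zeocin, -0.13 after UV-C and a difference of -0.99 ± 0.27 (edgeR adjusted p = 0.00552).

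**Figure D2:**
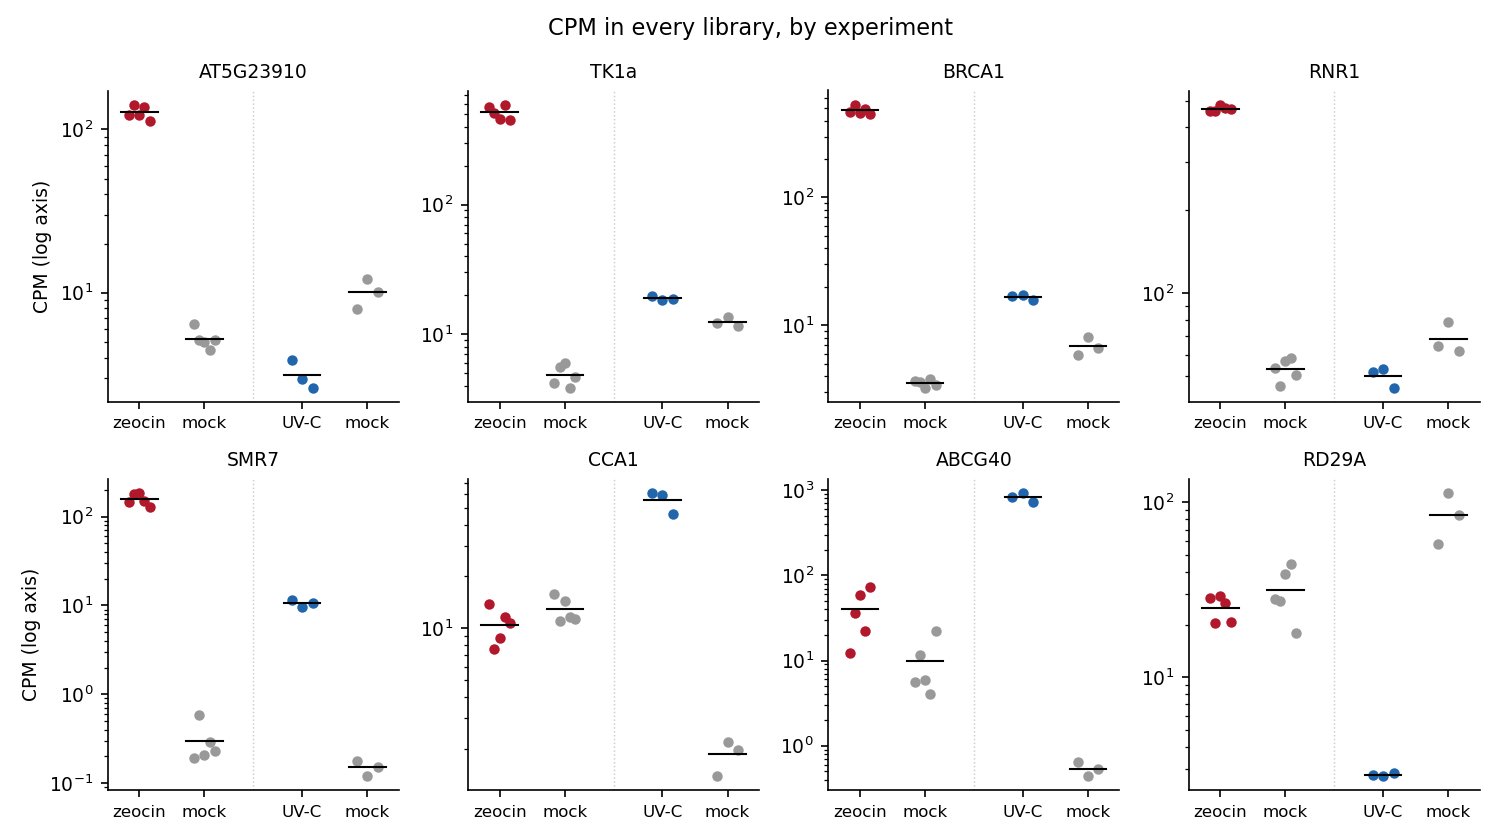
CPM of 8 genes in every library on a log axis, with zeocin and its mocks on the left of each panel and UV-C and its mocks on the right; bars are means. AT5G23910 and RNR1 move in opposite directions, TK1a, BRCA1 and SMR7 are higher after both agents, CCA1 and RD29A overlap between zeocin and its mocks, and ABCG40 spreads widely within the zeocin experiment.

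In the wider repair lists, recombination followed the same order with fewer genes. Of 23 homologous recombination genes, 7 rose and 2 fell after zeocin, against 17.4% and 14.1% of all genes. After UV-C 5 rose and 5 fell, against 28.4% and 29.8%. The difference was lower in none and higher in 11, against 23.8%. That count was 7 without UV-C mock 2 or UV-C library 2 and 6 without UV-C library 3, and UV-C falls numbered 9 under table totals; BRCA1, COM1 and RPA1E are among those that belong to the SOG1 list as well. MRE11, the nuclease of the MRN complex, fell by 0.65 after zeocin and 0.66 after UV-C with no called difference, whereas RAD54, a chromatin translocase, rose by 3.23 after zeocin and 0.87 after UV-C. Of 8 end joining genes 3 rose after zeocin, against 17.4% of all genes, and 1 after UV-C, against 28.4%. That UV-C rise was PARP1, which belongs to the SOG1 list as well and rose after zeocin too. Its UV-C call was lost without UV-C mock 1 or UV-C library 1 or under table totals. Of the 8 end joining genes, 2 rose after UV-C without UV-C library 3, and 3 by limma-voom. LIG4, the ligase of that pathway, rose by 0.95 ± 0.09 after zeocin with a UV-C value of 0.09, and the Ku subunits that bind free ends were not called after either agent, with 0.08 after zeocin and 0.27 after UV-C for KU70 and 0.00 after zeocin and -0.05 after UV-C for KU80; limma-voom called the UV-C value of KU70, at 0.37.

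The tested genes of the dimer repair list, with photolyases, excision repair and translesion synthesis, did not rise as a group after UV-C. Of its 19 members 16 were tested. UVR3 and ERCC1 lacked a locus of their own in the UV-C table, and CEN2 lacked one in both tables. Of the 16, 6 rose and 1 fell after zeocin, against 17.4% and 14.1% of all genes, with a median of 0.05. After UV-C 2 rose and 7 fell, against 28.4% and 29.8%, with a median of -0.18. The difference was higher in 7, against 23.8%, and lower in none. The number of zeocin rises depended on scaling and single libraries, with 2 under table totals and 3 under upper quartile factors or without zeocin mock 5, zeocin library 2 or zeocin library 4. CHR8, the homolog of human CSB, which acts at stalled RNA polymerase, had 33.2, 42.2, 38.7, 34.5 and 39.7 CPM after zeocin, against 10.5, 9.01, 9.91, 10.5 and 6.20 CPM in its mocks. The UV-C experiment gave 4.19, 5.73 and 4.47 CPM after treatment, against 3.89, 4.33 and 3.56 CPM in those mocks. Only the zeocin groups were apart, and the responses of 2.03 ± 0.13 to zeocin and 0.29 ± 0.19 to UV-C differed by 1.74 ± 0.23 (edgeR adjusted p = 1.08e-05). DDB2, which recognises dimers, rose by 0.38 after zeocin and 0.79 after UV-C, and the zeocin call was lost without zeocin mock 2 or 5, zeocin library 2, 4 or 5, or under table totals or upper quartile factors, while without zeocin mock 2 a difference of -0.51 was called. The photolyase gene AT1G12370 gave -0.08 after zeocin and 0.59 after UV-C, neither called by edgeR, while limma-voom called the UV-C value, at 0.62. POLH, a translesion polymerase, had 0.36 after zeocin and fell by 0.87 after UV-C, a call lost without UV-C library 2 at -0.60, and the UV-B receptor gene UVR8, counted in the flavonoid list, had 0.01 after zeocin and fell by 1.0 after UV-C.

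The list of checkpoint sensors and arrest factors held both kinds of response, and SMR4, SMR7, WEE1 and RAD17 belong to the SOG1 list as well. Of 14 tested members, 6 rose after zeocin, against 17.4% of all genes. After UV-C 5 rose and 1 fell, against 28.4% and 29.8%. The difference was higher in 6, against 23.8%. The UV-C rises were 3 without UV-C library 2, UV-C library 3 or zeocin mock 1, or under table totals or upper quartile factors, and 2 fell after UV-C without UV-C library 2. SOG1 gave 0.15 after zeocin and -0.21 after UV-C and ATR 0.37 after zeocin and 0.32 after UV-C, none of them called. Without UV-C library 2, SOG1 was called with -0.48 after UV-C and a difference of 0.63, and the zeocin value of ATR was called, at 0.50 without zeocin mock 1, and also by limma-voom and with the replicate block. ATM had -0.08 after zeocin and fell by 0.78 after UV-C, a difference of 0.70. RAD17, which loads the checkpoint clamp, rose by 3.77 after zeocin and 1.19 after UV-C, and WEE1, the kinase that delays entry into mitosis, rose by 2.31 after zeocin with 0.24 after UV-C.

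Genes of G2 phase and mitosis fell after both agents, and mostly further after UV-C. Of 25 tested members, 20 fell after zeocin, against 14.1% of all genes, and 22 after UV-C, against 29.8%. The medians were -0.91 after zeocin and -1.88 after UV-C. The difference was higher in 15, against 23.8% of all genes, meaning a deeper fall after UV-C. It was lower in 1, against 23.4%. In whole seedlings, fewer cells of a type and less RNA per cell cannot be told apart. KNOLLE, the syntaxin of the division plate, fell by 0.98 after zeocin and 2.83 after UV-C, and CDC20.1, which activates the anaphase-promoting complex, by 0.68 after zeocin and 2.45 after UV-C. The cyclin gene CYCA1;1 had 0.14 after zeocin and fell by 1.95 after UV-C, and CCS52B, a related activator, had 0.11 after zeocin and fell by 1.89 after UV-C. The reverse came from the cyclin gene CYCB1;3, which fell by 1.44 after zeocin, with -0.17 after UV-C and a difference of -1.28 ± 0.19 (edgeR adjusted p = 4.2e-05). The core AACGG of the MSA element, to which MYB3R factors bind, was in 56.0% of the 25 promoters (14) and in 21.5% of all 17174. The checkpoint list, where 6 genes rose and 0 fell after zeocin, held the core in 57.1% (8 of 14). The ribosome biogenesis list, where 5 fell after zeocin and 6 rose after UV-C, held it in 4 of 8. Of the 485 genes that fell after both and more after UV-C, 26.2% held it. Of the 679 that fell after both with no called difference, 21.2% did. The core was thus not particular to falling genes.

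The replication list split instead. Of 20 tested members, 4 rose and 14 fell after zeocin, against 17.4% and 14.1% of all genes, with a median of -0.68. After UV-C 4 rose and 4 fell, against 28.4% and 29.8%, with a median of -0.15. The difference was higher in 4 and lower in 9, against 23.8% and 23.4%. Under table totals 1 rose and 8 fell after UV-C. UV-C rises were 2 without UV-C mock 3 or UV-C library 1, and UV-C falls 2 without UV-C mock 2 or UV-C library 3. The subunits MCM2, MCM4 and MCM5 of the replicative helicase fell by 0.90, 0.76 and 0.69 after zeocin, with 0.10, -0.06 and -0.14 after UV-C. POL2A, the catalytic subunit of polymerase epsilon, rose by 4.88 after zeocin and 0.45 after UV-C, and its UV-C call was lost without UV-C mock 1 or under table totals. The E2F site TTTCCCGC was in 30.0% of the 20 promoters (6) and in 0.6% of all.

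AT5G23910 had the most positive difference of all genes that the rule for naming admits, and its responses pointed in opposite directions. It had 122, 142, 122, 138 and 113 CPM after zeocin, against 6.44, 5.10, 4.96, 4.46 and 5.15 CPM in its mocks. The UV-C libraries held 3.84, 2.96 and 2.62 CPM, against 7.89, 12.2 and 10.1 CPM in those mocks. All zeocin libraries lay above and all UV-C libraries below their mocks, and the responses of 4.61 ± 0.13 to zeocin and -1.68 ± 0.18 to UV-C differed by 6.29 ± 0.22 (edgeR adjusted p = 1.12e-12). KICP-02 (AT3G50240), also annotated as a microtubule motor, did likewise with 1.34 after zeocin and -1.48 after UV-C, and XTH28, a cell wall transglucosylase, with 1.97 after zeocin and -1.15 after UV-C.

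Opposite responses the other way included cell wall and transport genes. PMEPCRA (AT1G11580, chr1:3888610-3890824), a pectin methylesterase, had 68.0, 71.2, 71.7, 82.6 and 110 CPM after zeocin, against 204, 183, 212, 183 and 199 CPM in its mocks. Its levels after UV-C were 125, 209 and 175 CPM, against 42.4, 24.1 and 43.7 CPM in those mocks. The groups were apart in both experiments with opposite order, and the responses of -1.28 ± 0.17 to zeocin and 2.21 ± 0.23 to UV-C differed by -3.49 ± 0.29 (edgeR adjusted p = 1.11e-07). CYP79B3, which turns tryptophan towards indole glucosinolates and camalexin, gave -1.03 after zeocin and 2.59 after UV-C, and CLC-B, an anion channel, -1.21 after zeocin and 1.09 after UV-C. All 8 genes of the ribosome biogenesis list were tested, and 5 fell after zeocin while 6 rose after UV-C; the zeocin falls were small and numbered 8 under upper quartile factors and 3 without UV-C mock 3, any UV-C library, zeocin mock 3 or 4, or zeocin library 1, 2, 4 or 5. FIB2, a fibrillarin that methylates ribosomal RNA, fell by 0.80 after zeocin and rose by 0.79 after UV-C, a difference of -1.59 ± 0.24 (edgeR adjusted p = 4.86e-05), and NOP56, its partner in the same particle, gave -0.40 after zeocin and 0.61 after UV-C. The difference was lower in 7 of the 8, against 23.4% of all genes. Across all genes 14.1% fell after zeocin and 28.4% rose after UV-C.

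Some genes answered zeocin with no call after UV-C and a called difference. AT5G48020 (chr5:19462516-19464971), annotated as an iron- and 2-oxoglutarate-dependent oxygenase and picked after its values were seen, had 273, 333, 317, 295 and 290 CPM after zeocin, against 17.9, 20, 20, 17.8 and 18.6 CPM in its mocks. In the UV-C experiment the treated seedlings had 27.2, 27.4 and 25.8 CPM, against 23.9, 22.5 and 24.9 CPM in those mocks. The zeocin libraries stood far apart and the UV-C libraries barely so, with 4.0 ± 0.08 after zeocin, an uncalled 0.17 ± 0.09 after UV-C and a difference of 3.83 ± 0.12 (edgeR adjusted p = 1.31e-13); by limma-voom that UV-C value was called. Also picked after their values were seen, RFC1, the large subunit of the clamp loader, gave 2.11 after zeocin and -0.08 after UV-C, and FZR2, an activator of the anaphase-promoting complex, 2.02 after zeocin and 0.09 after UV-C. On the falling side, NRT1.5 (AT1G32450, chr1:11715147-11719988), which loads nitrate into the xylem, had 7.78, 5.17, 6.29, 6.71 and 7.66 CPM after zeocin, against 50.9, 50, 45.5, 40.1 and 47 CPM in its mocks. After UV-C it had 27.3, 29.4 and 35.4 CPM, against 34.0, 17.4 and 36.5 CPM in those mocks. Only the zeocin groups were apart, and the responses of -2.80 ± 0.17 to zeocin and 0.07 ± 0.21 to UV-C differed by -2.86 ± 0.27 (edgeR adjusted p = 4.76e-07). Of 18 genes of root tissues and transport 11 fell after zeocin and 3 after UV-C, against 14.1% and 29.8% of all genes. Their medians were -0.84 after zeocin and -0.18 after UV-C, and 5 fell after UV-C without UV-C mock 2. The difference was lower in 6, against 23.4%, or in 3 without UV-C library 3. NRT2.1, the main high-affinity nitrate uptake transporter, fell after both, by 2.81 after zeocin and 1.0 after UV-C, and CASP1 fell by 1.2 after zeocin, with -0.69 after UV-C and no called difference. The UV-C value of CASP1 was called without UV-C mock 2, at -1.01, or UV-C library 3, at -1.11, and by limma-voom or under table totals.

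Stress and defence genes made up the other side, with larger responses to UV-C. Of 22 genes of oxidative stress and detoxification, 12 rose and 2 fell after zeocin and 21 rose after UV-C, with medians of 0.60 after zeocin and 3.15 after UV-C, and the difference was lower in 18, against 23.4% of all genes. The zeocin falls were 0 without zeocin library 2 or 4, and 1 without zeocin library 3 or 5, without zeocin mock 1, 3, 4 or 5, by limma-voom or with the replicate block. Of 23 genes of jasmonate, ethylene and wounding, 13 rose after zeocin and 21 after UV-C, with medians of 0.57 after zeocin and 3.15 after UV-C, and the difference was lower in 15. Of 21 salicylic acid and defence genes, 11 rose after zeocin and 17 after UV-C, with medians of 0.87 after zeocin and 2.24 after UV-C, and the difference was lower in 13. Many of these genes thus rose after both agents. Across all genes 17.4% rose after zeocin and 28.4% after UV-C.

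**Figure D3:**
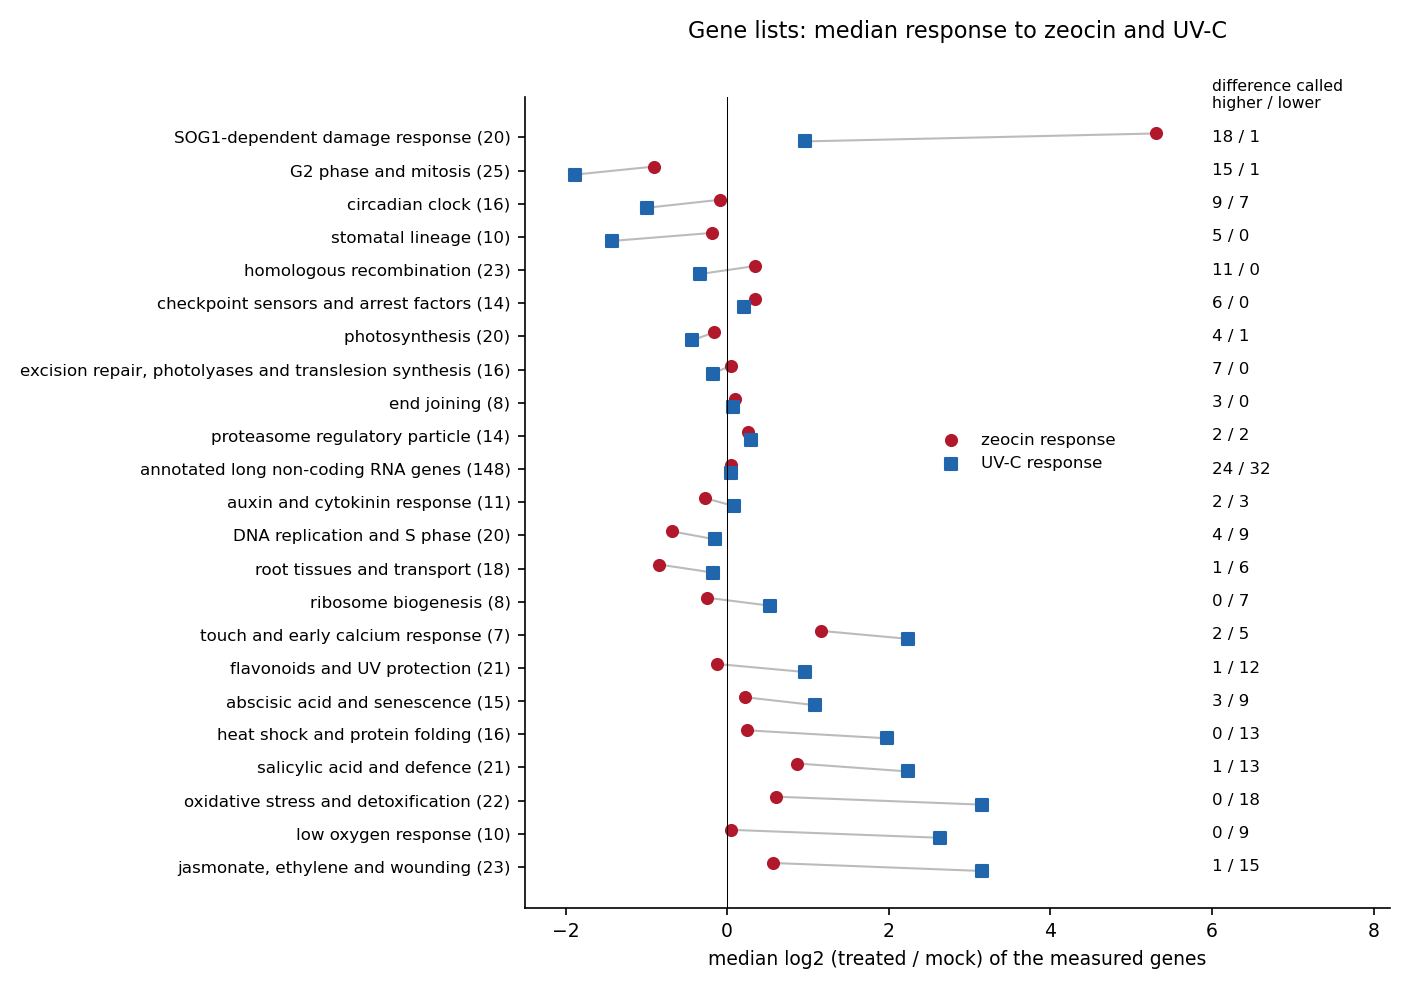
For each gene list, with the number of tested genes in brackets, the red circle is the median zeocin response and the blue square the median UV-C response on the log2 scale; the numbers on the right count genes with a called difference, higher and lower. The SOG1 list alone has a median far to the right for zeocin, at 5.31, while oxidative stress and jasmonate lists reach 3.15 after UV-C.

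The transporter gene ABCG40 (AT1G15520, chr1:5331858-5338326), which imports abscisic acid, had 12.4, 35.9, 58.7, 22.1 and 73.9 CPM after zeocin, against 5.53, 11.5, 5.85, 4.09 and 22.2 CPM in its mocks. The UV-C experiment gave 836, 924 and 725 CPM after treatment, against 0.643, 0.441 and 0.530 CPM in those mocks. The zeocin groups overlapped and spread widely while the UV-C groups were far apart, and the responses of 2.04 ± 0.51 to zeocin and 10.57 ± 1.01 to UV-C differed by -8.53 ± 1.05 (edgeR adjusted p = 2.16e-05). The same wide spread among zeocin mocks was seen in AT2G04050, which had the most negative difference: 4.93, 15.6, 39.7, 8.98 and 15.3 CPM after zeocin, against 1.59, 85.8, 72.5, 52.4 and 7.26 CPM in its mocks. It had 167, 169 and 165 CPM after UV-C, against 0.179, 0.0801 and 0.114 CPM in those mocks. Its difference of -11.71 ± 1.94 (edgeR adjusted p = 0.000267) was not called by limma-voom, which gave -11.21. Nor did limma-voom call its UV-C response, at 10.17. AT4G08780, a peroxidase, had tight groups instead, with 5.20, 7.5, 6.07, 5.30 and 5.99 CPM after zeocin, against 4.44, 5.73, 5.66, 4.94 and 6.88 CPM in its mocks, and 73.2, 66.4 and 60.9 CPM after UV-C, against 1.04, 0.441 and 0.681 CPM in those mocks. Its zeocin groups overlapped and its UV-C groups did not, with 0.12 ± 0.14 after zeocin and 6.51 ± 0.24 after UV-C and a difference of -6.39 ± 0.27 (edgeR adjusted p = 1.3e-11).

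Among the listed stress genes, the regulator ZAT12 had 0.42 after zeocin, called as 0.62 without zeocin mock 3 and as 0.46 with the replicate block, and rose by 5.75 after UV-C, and JAZ5, a repressor of jasmonate signalling, rose by 1.31 after zeocin and 7.33 after UV-C. PAD3, the last enzyme of camalexin synthesis, rose by 2.5 after zeocin and 8.78 after UV-C, and EDS5, which exports the precursor of salicylic acid from plastids, by 1.22 after zeocin and 3.97 after UV-C. LOX2, a chloroplast lipoxygenase of jasmonate synthesis, was the exception, with 0.29 after zeocin and a fall of 2.40 after UV-C. SAG101, a partner of EDS1 in immunity, rose more after zeocin, by 2.62 against 0.99 after UV-C, a difference of 1.63 ± 0.29 (edgeR adjusted p = 0.000251). AOC1, an allene oxide cyclase, rose by 2.35 after zeocin and 2.46 after UV-C.

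Most genes of the heat shock and low oxygen lists rose after UV-C, and few were called after zeocin. Across all genes 17.4% rose and 14.1% fell after zeocin, 28.4% rose and 29.8% fell after UV-C, and 23.4% had a lower difference. Of 16 heat shock and folding genes, 3 rose after zeocin and 14 after UV-C, with medians of 0.25 after zeocin and 1.98 after UV-C, and the difference was lower in 13; without zeocin library 2, 1 rose after zeocin. HSP21, a small heat shock protein of plastids, had a zeocin value of -1.69 that was not called but was called by DESeq2 or without zeocin mock 1 or 2. It had 122 counts after UV-C against 0 in the mocks, at least 53.5-fold higher when 3 counts over the group stand for 0. None of the 10 low oxygen genes rose and 1 fell after zeocin, and all 10 rose after UV-C, with medians of 0.05 after zeocin and 2.64 after UV-C, among them ADH1, alcohol dehydrogenase, with -0.07 after zeocin and 3.13 after UV-C. Of 21 genes of flavonoids and UV protection, 3 rose and 3 fell after zeocin and 12 rose and 2 fell after UV-C, or 1 without UV-C mock 1 or 2 or UV-C library 2 or 3, and the difference was lower in 12. Of the zeocin rises, 1 or none was left under RLE, upper quartile or no factors, or without any 1 library other than UV-C mock 2, UV-C library 1 or 3 and zeocin mock 3. PAL2, which opens the phenylpropanoid pathway, had -0.14 after zeocin and rose by 2.5 after UV-C, a difference of -2.64 ± 0.14 (edgeR adjusted p = 2e-10).

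Abscisic acid and senescence genes held rises and falls. Of 15 tested members 6 rose and 3 fell after zeocin, against 17.4% and 14.1% of all genes. After UV-C 10 rose, against 28.4%, and 2 fell, fewer than the 29.8% of all genes. RD29A (AT5G52310, chr5:21240717-21243644), a classical target of drought, cold and abscisic acid, had 28.3, 20.4, 29.0, 26.7 and 20.6 CPM after zeocin, against 28.2, 27.3, 38.9, 44.7 and 17.9 CPM in its mocks. The UV-C libraries held 2.76, 2.73 and 2.83 CPM, against 58.1, 113 and 84.6 CPM in those mocks. The zeocin groups overlapped and the UV-C groups did not, and -0.33 ± 0.22 after zeocin and -4.94 ± 0.36 after UV-C gave a positive difference of 4.61 ± 0.41 (edgeR adjusted p = 4.32e-07), made by a fall after UV-C. The same held for AT5G62360, a pectin methylesterase inhibitor, with -0.55 after zeocin and -6.65 after UV-C, and for the cold-regulated COR413IM1, with -0.08 after zeocin and -5.41 after UV-C. Positive differences therefore joined genes that zeocin raised to genes that UV-C lowered.

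Every tested member of the circadian clock list differed. All 16 genes had a called difference, 9 higher and 7 lower, against 47.2% of all genes. After zeocin 1 rose and 3 fell, against 17.4% and 14.1% of all genes. After UV-C 7 rose and 9 fell, against 28.4% and 29.8%. CCA1 (AT2G46830, chr2:19245591-19248915), a MYB factor of the morning, had 13.8, 7.55, 8.76, 11.7 and 10.8 CPM after zeocin, against 15.9, 11.1, 14.5, 11.6 and 11.3 CPM in its mocks. Its levels after UV-C were 60.9, 59.3 and 46.0 CPM, against 1.39, 2.20 and 1.97 CPM in those mocks. The zeocin groups overlapped, the UV-C groups stood far apart, and -0.29 ± 0.16 after zeocin and 4.90 ± 0.25 after UV-C differed by -5.20 ± 0.29 (edgeR adjusted p = 6.69e-10); without zeocin library 1 the zeocin value was called, at -0.41. LHY, its partner, rose by 1.03 after zeocin and 6.29 after UV-C, and RVE8, a related MYB factor, had 0.14 after zeocin and rose by 4.40 after UV-C.

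Several genes of the evening fell in the same UV-C libraries. TOC1 had a zeocin response of 0.14, and it had 36.3, 37.9 and 40.3 CPM after UV-C, against 113, 109 and 99.3 CPM in those mocks. LUX had 0.05 after zeocin and fell by 1.23 after UV-C, and ELF3, also of the evening complex, had -0.10 after zeocin and fell by 1.57 after UV-C. GRP7 fell by 0.52 after zeocin and 2.94 after UV-C, with 112, 73.2 and 92.7 CPM after UV-C, against 642, 773 and 711 CPM in those mocks. PRR9, a pseudo-response regulator, had -0.06 after zeocin and rose by 3.89 after UV-C, whereas its relative PRR7 had -0.13 after zeocin and fell by 0.95 after UV-C, and PRR5 had 0.30 after zeocin and fell by 1.23 after UV-C. Whether the UV-C libraries and their mocks were harvested at the same hour is not in the labels and was not tested.

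**Figure D4:**
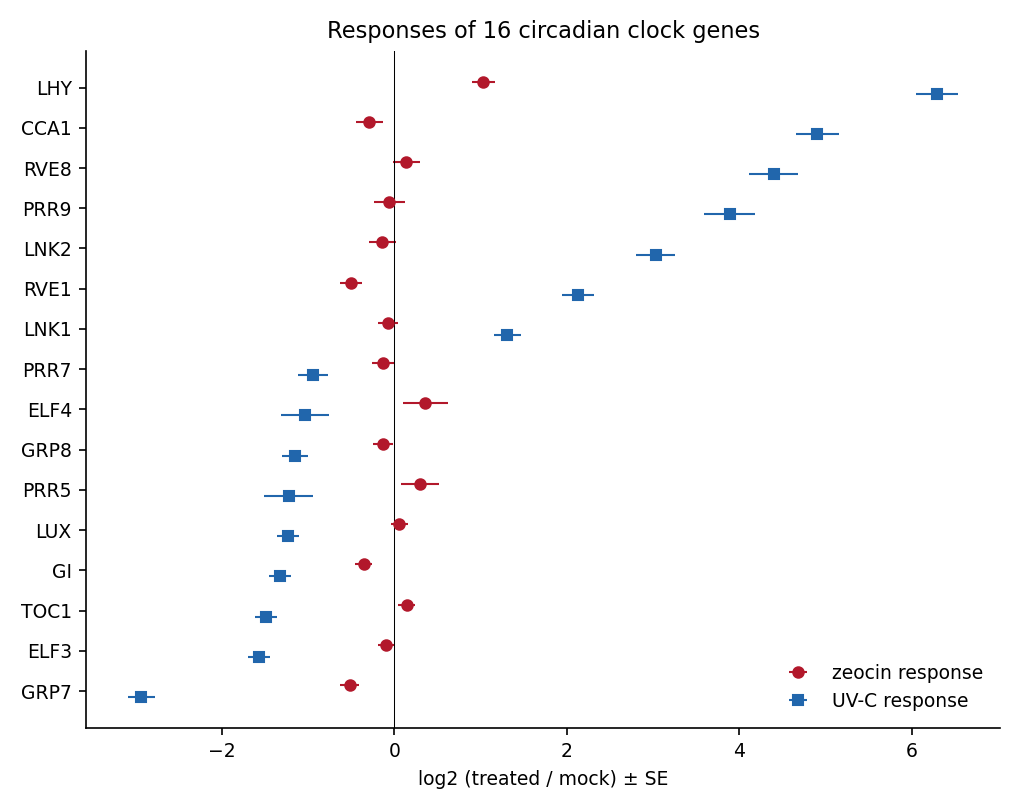
Responses of the 16 clock genes as log2 of treated over mock with standard errors, zeocin as red circles and UV-C as blue squares. The zeocin values lie between -0.52 and 0.36 apart from LHY at 1.03, while UV-C values run from 6.29 for LHY to -2.94 for GRP7.

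Genes on which the agents gave like responses were also found, although a missing call does not show equality. AT4G09215, whose promoter is shown above, had 161, 237, 227, 187 and 191 CPM after zeocin, against 0.119, 0.713, 0.556, 0.485 and 0.342 CPM in its mocks. In the UV-C experiment the treated seedlings had 41.3, 47.6 and 48.4 CPM, against 0.107, 0.0801 and 0.151 CPM in those mocks. Treated and mock libraries were far apart in both experiments, with rises of 8.83 ± 0.25 after zeocin and 8.62 ± 0.38 after UV-C. The difference was 0.21 ± 0.81 (edgeR adjusted p = 0.853). The mocks were near 0, and the error of the difference, taken from the test statistic, was larger than that of either response. On the falling side AMT1;3, an ammonium transporter, fell by 1.43 after zeocin and 1.45 after UV-C, a difference of 0.01 ± 0.33. The proteasome regulatory particle list had like medians, 0.26 after zeocin and 0.30 after UV-C. After each agent 9 of its 14 genes rose, against 17.4% of all genes after zeocin and 28.4% after UV-C. Of the 14, 5 rose in both with no called difference, against 4.04% of all genes. The difference was higher in 2 and lower in 2, against 23.8% and 23.4%. Lower differences numbered 0 under table totals. They numbered 1 without UV-C mock 1, UV-C library 1 or 2, zeocin mock 1, 3 or 4, or zeocin library 1 or 5. Under table totals 4 rose after UV-C.

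Annotated long non-coding RNA genes, are the class the series set out to study. Of 148 tested, 14 rose and 10 fell after zeocin, against 17.4% and 14.1% of all genes, and 44 rose and 31 fell after UV-C, against 28.4% and 29.8%. The difference was higher in 24 and lower in 32, against 23.8% and 23.4%. AT2G24755 (chr2:10541727-10549493) had 85.5, 90.4, 81.9, 80.8 and 87.8 CPM after zeocin, against 57.9, 46.8, 41.5, 43.8 and 40 CPM in its mocks. After UV-C it had 20.6, 24.4 and 24.7 CPM, against 35.3, 41.1 and 41.1 CPM in those mocks. Its groups were apart in both experiments in opposite order, with 0.89 ± 0.09 after zeocin and -0.75 ± 0.12 after UV-C and a difference of 1.64 ± 0.15 (edgeR adjusted p = 2.27e-07). AT1G06983 went the other way with 0.41 after zeocin and a rise of 5.39 after UV-C.

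The stomatal lineage and photosynthesis lists had more falls after UV-C. Across all genes 17.4% rose and 14.1% fell after zeocin, and 28.4% rose and 29.8% fell after UV-C. Of 10 stomatal genes 1 fell after zeocin (3 by DESeq2 or under RLE, upper quartile or no factors, and 2 with the replicate block or without UV-C library 1 or 2, zeocin mock 1 or 2, or zeocin library 1 or 4) and 9 after UV-C, with medians of -0.19 after zeocin and -1.42 after UV-C; FAMA, the factor for the last step of guard cell formation, had -0.02 after zeocin and fell by 1.34 after UV-C. Of 20 photosynthesis genes none was called after zeocin, and 1 rose and 10 fell after UV-C; 7 fell after zeocin without zeocin library 1, and 5 under table totals. The difference was higher in 4 and lower in 1, both below the 23.8% and 23.4% of all genes. Without zeocin mock 1 it was higher in 7. RBCS1A had -0.16 after zeocin and fell by 0.80 after UV-C.

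The motif shares differed between the classes as follows, each as a description. The SOG1 site was in 8.8% of all 17174 promoters, in 20% of those of the SOG1 list (4 of 20), in 18.3% of the 71 genes whose zeocin rise was at least 3 with a difference of at least 1, and in 15.3% of the 693 that rose in both with no called difference. In lists with no zeocin rise it was in 3 of the 10 low oxygen promoters and 2 of the 10 stomatal ones. It was also in 3 of 25 G2 and mitosis promoters, 2 of 20 photosynthesis promoters and 0 of 8 ribosome biogenesis promoters. Among the 424 genes with a zeocin rise and a called difference but no UV-C call, 9.0% held it. Of the 10 genes with the largest positive difference 1 held it. AT2G04050 and AT2G38240, of the 10 with the largest negative difference, held it as well. The W-box was in 12.4% of all and in 21.4% of the 1002 genes that rose in both and more after UV-C. It was in 2 of the 10 genes with the largest negative difference. AT4G02110 and AT3G62550, of the 10 with the largest positive difference, held the W-box too. The evening element was in 2.6% of all and in 31.2% of the clock list (5 of 16). The free bases of the SOG1 site can overlap another motif, and none of the other motifs contains another. A match shows the letters, not binding.

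Gene length separated the responses weakly. When 16823 protein-coding genes were put into 5 equal quintiles by their span, the zeocin medians stayed between -0.03 and 0.01. The median UV-C response over the same quintiles ran from 0.15 in the shortest (180 to 1644 bases) through 0.03, -0.01 and -0.09 to -0.14 in the longest (3717 to 27265 bases). After UV-C 34.8% of the shortest and 21.0% of the longest genes rose, and 22.9% and 35.5% fell. The longest minus the shortest quintile was -0.03 for zeocin and -0.29 to -0.30 for UV-C under all 5 scalings. Quintiles also differed in exon share, from 88.1% of the span in the shortest to 63.3% in the longest, and its part in the result was not tested.

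**Figure D5:**
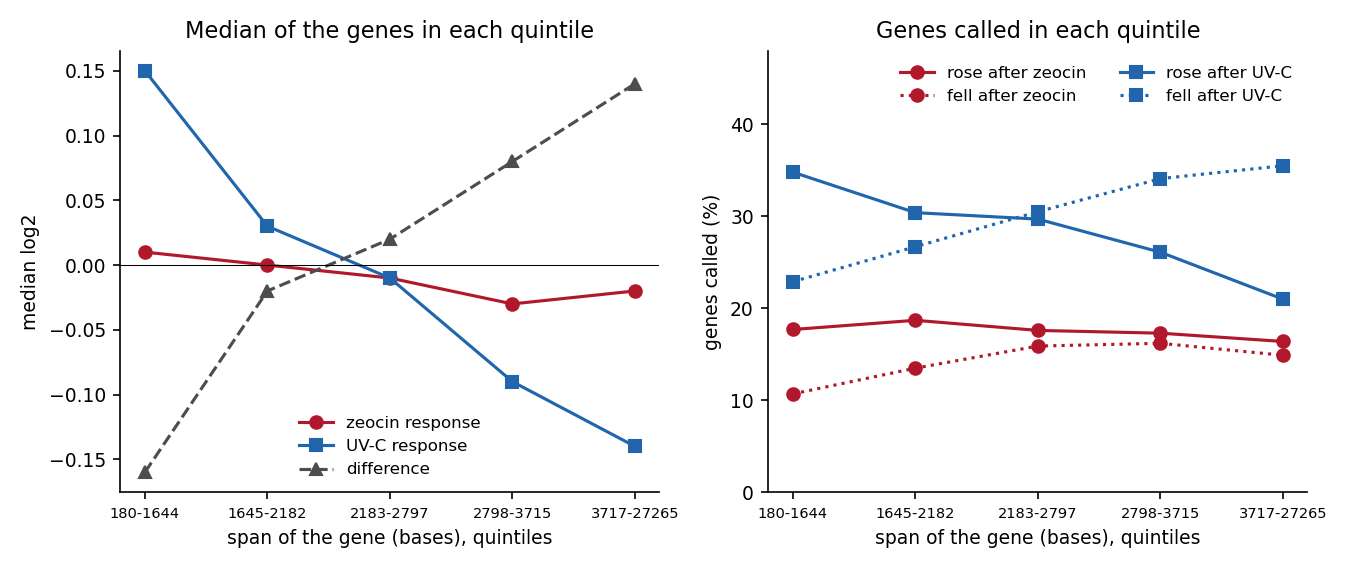
Left, the median zeocin response, UV-C response and difference (log2) in quintiles of gene span; right, the percentage of genes in each quintile that rose or fell after each agent. Zeocin lines stay nearly level, while UV-C falls reach 35.5% and UV-C rises 21.0% in the longest quintile.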

How the data were processed

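RNA of 16 libraries was measured by strand-marking sequencing after ribosomal depletion, in separate zeocin and UV-C experiments, each with its own mocks. The authors deposited a count table for each experiment, with raw fragment counts for every locus they assembled. Trimming used Trim Galore 0.11.8 and alignment STAR 2.7.1a with the build TAIR10, per the submitters' processing notes. Per the file headers, loci were assembled per experiment with StringTie 2.1.5 and counted with featureCounts 2.0.1 on the marked strand. The assembly options differed, with a minimum coverage of 10 for zeocin and 1 for UV-C. The score column of the deposited assemblies, written by StringTie per the file headers, was not used as a measurement. Fragments that map to several places were not counted under these options, so near-identical gene copies can be undercounted.

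A locus held a gene when their exonic overlap on the same strand was at least 50% of the gene or the locus. A gene was kept when, in each table, the locus with the longest overlap held no other gene. Further loci could hold the same gene, and 15426 of the tested genes had only 1 locus in each table. The tables held 20880 and 22818 loci, and 19056 and 18897 genes alone, for zeocin and UV-C. A locus can cover part of a gene. Groups came from the sample titles. All columns of per-sample values were used.

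edgeR 4.0.16 (R 4.3.3) fitted 4 groups over all 16 libraries with quasi-likelihood, TMM factors, library sizes from the table totals, filterByExpr and robust dispersions, without a replicate block. All tests were two-sided, and p-values were adjusted over 17174 genes. Standard errors follow from the test statistic. The fit was tested on simulated data. Chi-square tests of counts between replicates gave at least 7.66 per gene, so no pair looked like 1 library deposited again. Counting intervals and floors cover counting error only.

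The genes named were the 10 largest differences in each direction and the 6 strongest of each opposite and shared class. These had a mean of at least 5 CPM in at least 1 group of each table, a count in every group and a locus over at least 50% of the gene. Up to 5 members per list and direction, and those with the largest response to either agent, were named without these limits. Other list members, and genes said to be so, were picked after their values were seen. The members and lists were chosen with earlier results of these data known. Of 420 list entries, 18 could not be matched to a gene with certainty and were dropped. Promoter windows were planned from a RefSeq promoter table and were read instead from the RefSeq TAIR10.1 genome and annotation. Lists are described by counts and medians with no test. Alternatives were other normalizations, DESeq2 1.42.0, limma-voom (limma 3.58.1), no filter, stricter locus rules, a replicate block, a stricter threshold and leaving out each library.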

Additional observations from a re-analysis of the deposited data

Results flagged for a closer look

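Among the 218 named genes, 436 groups of 5 libraries were examined for a library far from the other 4, and 14 were found, where chance gives about 1 in 20 groups. All are in the zeocin experiment, since groups of 3 were not examined. After zeocin, library 5 had 1624 CPM of TSO2, against 1905 to 2008 CPM in the others, 83.3 CPM of AT2G38240, an oxygenase that rose after UV-C, against 22.8 to 38.8 CPM, 42.8 CPM of the sucrose synthase gene SUS1, against 31.6 to 34.4 CPM, and 66.5 CPM of the sulfate transporter gene SULTR1;2, against 51.5 to 54.9 CPM. Library 2 had 42.3 CPM of LIG4, against 36.8 to 37.4 CPM, and 1.48 CPM of the root hair gene RHD6, against 0.972 to 1.08 CPM. Library 1 had 10.4 CPM of WEE1, against 8.90 to 9.08 CPM.

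Among the zeocin mocks, mock 1 had 310 CPM of the catalase gene CAT2, against 250 to 265 CPM in the others, 8.29 CPM of AOC3, against 11 to 11.7 CPM, and 11.5 CPM of LUX, against 15.2 to 16.1 CPM. Mock 2 had 0.581 CPM of SMR7, against 0.190 to 0.291 CPM. Mock 3 had 38.7 CPM of the salicylic acid synthesis gene ICS1, against 11.7 to 17.4 CPM. Mock 4 had 4.52 CPM of POLH, against 3.41 to 3.63 CPM. Mock 5 had 7.72 CPM of the non-coding RNA gene AT3G04775, against 3.28 to 3.82 CPM.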

How the results depend on the processing

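No called difference changed sign among the named genes under any alternative. Requiring loci to cover at least 80% of the gene left 9077 genes and so lowered every count: 2314 and 2269 differences higher and lower, 1709 rises and 1394 falls after zeocin, 2712 and 2891 after UV-C, 211 and 227 opposite genes (up and down after zeocin), 80 and 923 larger after zeocin and after UV-C, 782 shared with no called difference, 435 zeocin responses and 2553 UV-C responses without the other call. At an adjusted p of 0.01, falls after zeocin numbered 1399, opposite genes 173 and 128, shared genes larger after zeocin or UV-C 69 and 800, and zeocin responses without a UV-C call 515.

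Normalization moved the balance of calls: zeocin rises were 55.3% of its calls with TMM, 42.8% with upper quartile factors and 40.6% with table totals, UV-C rises were 48.9% and 36.5% with TMM and table totals, and higher differences 50.5% and 59.1%. With table totals the median of all genes was -0.21 for UV-C and 0.12 for the difference, against -0.04 and 0.03 with TMM. Leaving out 1 library gave 3592 to 4667 higher and 3607 to 4001 lower differences, 2604 to 3113 rises and 1954 to 2672 falls after zeocin, 4449 to 4908 and 4545 to 5683 after UV-C, 293 to 418 and 261 to 404 opposite genes, 96 to 136 and 1270 to 1657 larger after zeocin and UV-C, 1187 to 1581 shared, 684 to 862 zeocin responses and 4113 to 5148 UV-C responses. DESeq2 called 4041 higher and 4282 lower differences and limma-voom 4519 and 4301.

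Whether replicate numbers pair the libraries was left unsettled. Deviations of same-numbered treated and mock libraries had correlations of -0.113 to 0.451 for zeocin and of -0.27 to 0.162 for UV-C. The highest zeocin correlations, 0.451 and 0.298, came from same-numbered libraries (1 and 3), but not every library correlated best with its own number. The deviations were taken from group means, so the correlations depend on one another and cannot exclude pairing. With the number as a replicate block, 4063 differences were higher and 3998 lower, and 94.9% of the called differences stayed called with their sign.

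Genes with few counts limit precision, as for NAC085, whose difference had a standard error of 7.48.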

Other observations

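Of 11 auxin and cytokinin response genes, 2 rose and 2 fell after zeocin, against 17.4% and 14.1% of all genes, and 3 rose and 2 fell after UV-C, against 28.4% and 29.8%. The difference was higher in 2 and lower in 3, against 23.8% and 23.4%, so these counts were near those of all genes. Without zeocin library 5, 4 fell and 1 rose after zeocin, and 1 rose also without UV-C mock 1, UV-C library 1, zeocin mock 2 or zeocin library 1 or 4. The cytokinin response gene ARR7 had 0.26 after zeocin, called as 0.34 without zeocin mock 4, and rose by 1.40 after UV-C. Of 7 touch and early calcium genes, 4 rose after zeocin and 5 after UV-C, with medians of 1.16 after zeocin and 2.24 after UV-C on the log2 scale. The calmodulin-like gene CML38 rose by 1.62 after zeocin and 3.5 after UV-C, and ERF104, an ethylene response factor, by 1.06 after zeocin, with 0.20 after UV-C and a difference of 0.87 ± 0.20 (edgeR adjusted p = 0.00175).

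AGO2, an Argonaute protein that binds small RNAs made at breaks, averaged 142 CPM after zeocin and 12.2 CPM in its mocks, and 15.0 CPM after UV-C and 7.54 CPM in those mocks. It rose by 3.54 ± 0.09 after zeocin and 0.99 ± 0.12 after UV-C, a difference of 2.55 ± 0.14 (edgeR adjusted p = 5.09e-10). The glutathione transferase gene GSTU25 rose strongly after both agents, by 4.78 ± 0.29 after zeocin and 6.43 ± 0.38 after UV-C, and its difference of -1.65 ± 0.46 (edgeR adjusted p = 0.00807) was not called by limma-voom.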
